A study of Mus musculus with 40 samples.

Results

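Transcripts of 8 genes of the pathway that controls the translation factor eIF2α were followed in bone marrow-derived macrophages (BMDMs). The rule that chose them names the genes and uses no measured value, but the choice was made with earlier results of these data known. The genes are those of the eIF2α kinases, Eif2ak1, Eif2ak2, Eif2ak3 and Eif2ak4, and the mitochondrial stress relay genes Oma1 and Dele1. The others are the phosphatase subunit gene Ppp1r15b, and Eif2s1, which encodes eIF2α itself. The 8 genes are 8 of the 43430 genes in the count table, and all 8 were among the 11853 genes that passed the filter on low counts.

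RNA-seq was performed on BMDMs, which are macrophages grown from bone marrow with the growth factor M-CSF, of 5 WT and 5 NDI1 mice (C57/Bl6, male and female littermates of 8 to 14 weeks). NDI1 is the NADH dehydrogenase of yeast mitochondria. It can oxidise NADH while piericidin A blocks complex I of the respiratory chain, without adding to the proton gradient. Its gene lies behind a stop cassette in the Rosa26 locus and is switched on in hematopoietic cells by a Vav-driven Cre, and the study describes this line as of mixed J and N substrain. The labels of both genotypes name this Cre (VAV-Cre WT and VAV-Cre NDI1), so WT stands for Cre without NDI1. The cells of each mouse were left untreated, received LPS (100 ng ml–1) for 4 h, received piericidin A (500 nM), or received piericidin A 30 min before LPS, which gave 8 groups of 5 libraries. LPS is a bacterial outer membrane component that activates macrophages. The design sets the effects of piericidin A in WT beside those in NDI1, where NADH oxidation can continue, while proton pumping by complex I and the superoxide it makes in reverse stay blocked.

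Phosphorylation of eIF2α slows the start of translation on most mRNAs and favours a few others, such as that of the transcription factor ATF4, a programme known as the integrated stress response. Each kinase answers a different stress. The kinase encoded by Eif2ak1 (HRI) senses lack of heme and receives mitochondrial signals, that of Eif2ak2 (PKR) senses double-stranded RNA, that of Eif2ak3 (PERK) senses unfolded proteins in the endoplasmic reticulum, and that of Eif2ak4 (GCN2) senses uncharged tRNA. Mitochondrial stress reaches HRI through the inner membrane protease OMA1, which cleaves DELE1 and so releases it to the cytosol, and phosphatase 1 bound to CReP (the product of Ppp1r15b) or to GADD34 (Ppp1r15a) removes the phosphate again. RNA-seq reads the transcripts of these proteins and not their activity or the phosphorylation of eIF2α.

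Gene counts summed to 6950748 in the shallowest library and to 13552070 in the deepest. The NDI1 transcript is of yeast and was not measured in the mouse gene table, so the genotype labels could not be checked on it. The 7 macrophage markers (among them Csf1r, Adgre1 and Lyz2) were present in every library, with summed levels of 19259 to 37714 CPM (counts scaled to a common library size, with TMM factors). The 8 neutrophil markers (S100a8, S100a9, Ngp and others) were highest in the libraries of 1 mouse of each genotype. Their sum was between 455 and 2699.6 CPM in the 4 libraries of WT mouse 496 and between 443 and 846 CPM in those of NDI1 mouse 503, against 36.3 to 182 CPM in the other WT libraries and 30.6 to 143 CPM in the other NDI1 libraries. The 4 stromal markers (Col1a1, Col1a2, Col3a1 and Dcn) reached 109 CPM, also in mouse 496. The summed lymphocyte markers stayed at or under 12.1 CPM, the dendritic cell markers at or under 33.5 CPM, and the erythroid and mast cell markers at or under 6.58 CPM. The neutrophil sum was higher with piericidin A than without it in 5 of 5 WT mice, both alone and under LPS. In WT mouse 496 it went from 455 to 1504 CPM and under LPS from 1034 to 2699.6 CPM, and in the other 4 WT mice it lay between 36.3 and 105 CPM without treatment, 46.9 and 121 CPM with piericidin A, 61.1 and 135 CPM with LPS and 113 and 182 CPM with both. In NDI1 it was higher with piericidin A in 3 of 5 mice alone and in 4 of 5 under LPS. More neutrophils and more of these transcripts per cell cannot be told apart in bulk RNA. The part of either in the results was not tested, and calls that were lost without mice 496 and 503 are given with each result.

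The promoters of Eif2ak2 and Eif2ak3, the kinase genes that LPS moved most, are shown here because LPS makes macrophages release interferon and interferon-activated STAT factors bind such elements. RefSeq promoter windows (250 bases before to 50 bases after the start site, GRCm38.p6) were given for 6 of the 8 members. They were searched on both strands for the interferon-stimulated response element core (GAAANNGAAA), the gamma-activated site (TTCNNNGAA, which reads the same on both strands) and the core of the C/EBP-ATF response element (TGATGNAA), with N for any base. Of 32851 windows of 300 bases, 3.44% held the first, 8.3% the second and 3.97% the third. The windows of Eif2ak1, Eif2ak4 and Oma1 held no match, which says only that these letters are not in those windows. The Eif2s1 window held 1 match to the first motif (GAAACAGAAA, bases −212 to −203 from the RefSeq start site). The counted span of this gene begins at base 78861819, ahead of the window (from 78861822), so this match lies within that span. The runs below are read 5′ to 3′ on the strand of the gene, with matches in capitals.
Eif2ak2, chr17:78882543-78882822, minus strand, 250 bases before the start site to base 30 of the transcript: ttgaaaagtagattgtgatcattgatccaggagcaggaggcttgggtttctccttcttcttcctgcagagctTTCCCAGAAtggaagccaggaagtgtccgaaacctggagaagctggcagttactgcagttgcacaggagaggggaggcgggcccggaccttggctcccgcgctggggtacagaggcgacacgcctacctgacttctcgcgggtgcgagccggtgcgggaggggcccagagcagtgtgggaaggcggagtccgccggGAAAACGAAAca
Eif2ak3, chr6:70844265-70844514, plus strand, the 250 bases before the start site: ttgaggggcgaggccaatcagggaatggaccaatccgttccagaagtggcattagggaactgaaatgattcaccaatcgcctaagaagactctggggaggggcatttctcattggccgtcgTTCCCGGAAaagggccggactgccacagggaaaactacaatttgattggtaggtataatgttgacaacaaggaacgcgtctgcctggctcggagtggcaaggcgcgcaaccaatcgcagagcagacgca
In the Eif2ak2 run, the capitals at bases −178 to −170 are the gamma-activated site TTCCCAGAA and those at bases 19 to 28, within the first exon, are the response element core GAAAACGAAA. In the Eif2ak3 run, the capitals at bases −129 to −121 are the gamma-activated site TTCCCGGAA. A match is a string of letters, and binding was not measured.

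The test for any difference among the 8 groups called all 8 members, with adjusted p-values between 3.23e-26 (Ppp1r15b) and 3.50e-08 (Eif2s1). It called 74.5% of all tested genes, so this count says little about the members in particular. LPS gave the largest differences. It called all 8 members in WT, where it called 62.5% of all genes, and all 8 in NDI1, where it called 62.7%. In both genotypes the same 3 members rose (Eif2ak2, Ppp1r15b and Eif2s1) and the same 5 fell (Eif2ak1, Eif2ak3, Eif2ak4, Oma1 and Dele1), against 31.5% of all genes called higher and 31% called lower in WT, and 31.5% and 31.2% in NDI1. The median log2 fold change of the 8 members was −0.70 in WT and −0.60 in NDI1, beside −0.0076 and −0.0057 over all tested genes. In bulk RNA, fewer cells that hold a transcript and less of it per cell cannot be told apart.

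**Figure D1:**
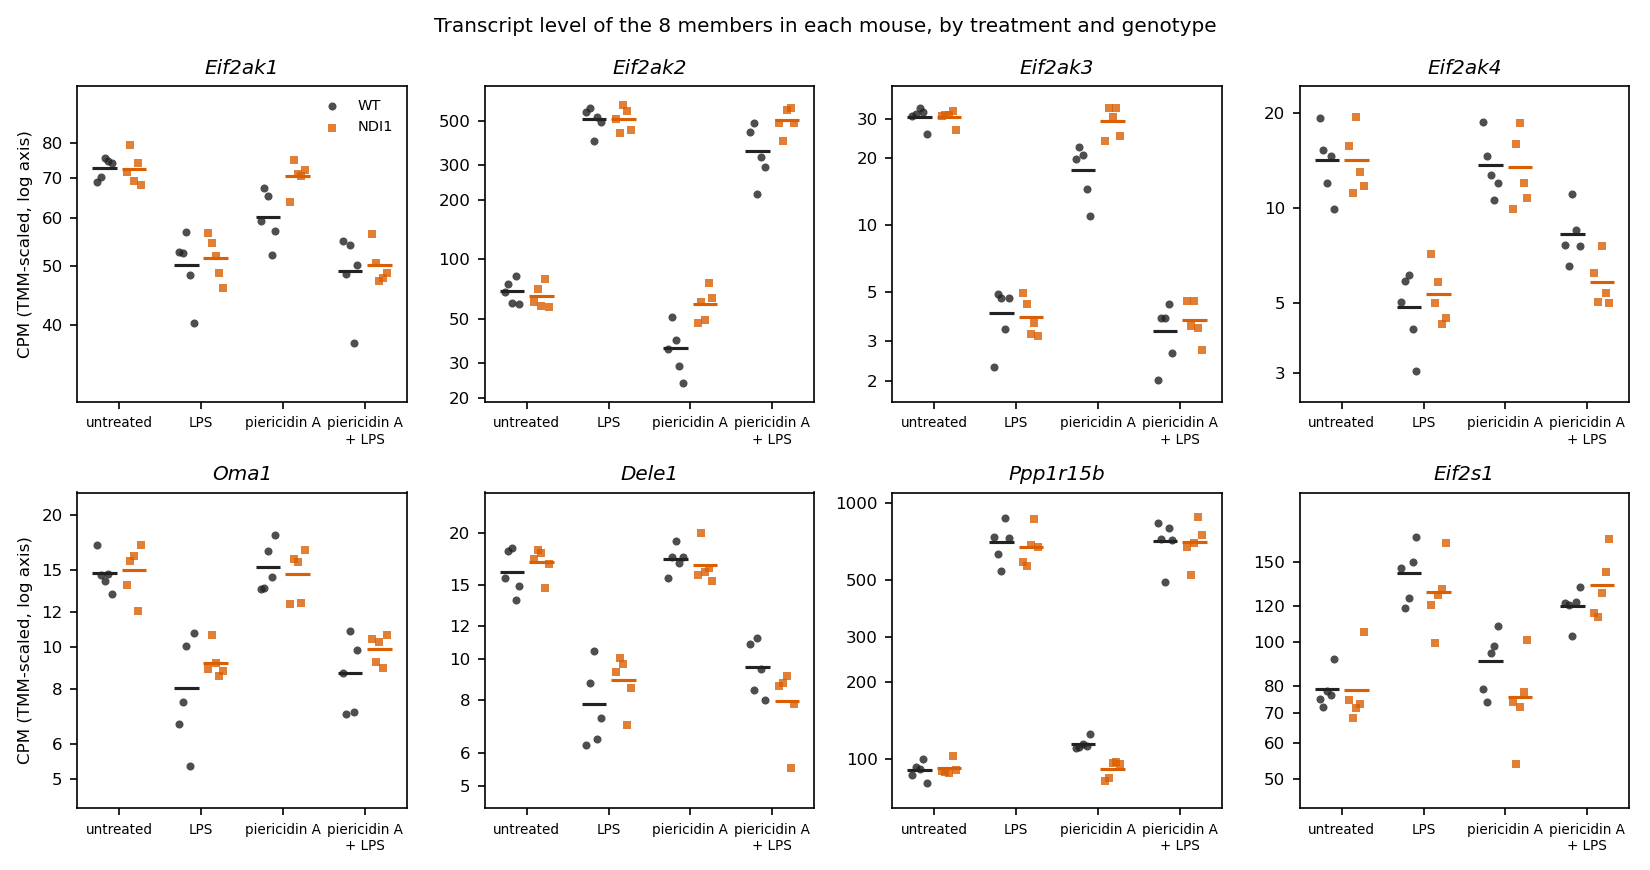
TMM-scaled CPM (log axis) of each member in the 40 libraries, by treatment, with WT as black circles, NDI1 as orange squares and the mean of 5 mice as a line. Eif2ak2 and Ppp1r15b stood higher in every library with LPS than in any without it, Eif2ak3 lower, and WT Eif2ak3 lay below NDI1 Eif2ak3 in every library with piericidin A alone.

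Eif2ak2 (ENSMUSG00000024079, chr17:78852564-78882573 in mm10, minus strand), the kinase gene that answers double-stranded RNA, rose most among the kinases with LPS. In untreated WT BMDMs its levels in mice 449, 452, 453, 496 and 520 were 68.2, 75.0, 60.6, 82.8 and 59.4 CPM, and with LPS they were 555, 581, 393, 521 and 491 CPM. In NDI1 mice 447, 460, 461, 503 and 521 they were 61.2, 71.0, 58.0, 80.1 and 57.7 CPM without treatment and 512, 433, 597, 558 and 447 CPM with LPS. The groups with and without LPS did not overlap in either genotype, and every LPS value was several times any untreated one. The log2 fold change was 2.88 ± 0.19 (SE) in WT (adjusted p = 1.54e-15) and 2.96 ± 0.19 in NDI1 (adjusted p = 8.22e-16), or 7.35-fold and 7.77-fold.

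Eif2ak3 (ENSMUSG00000031668, chr6:70844515-70905245 in mm10, plus strand), the kinase gene of the endoplasmic reticulum, moved as far in the other direction. Untreated WT mice, in the same order, were at 30.8, 31.4, 33.4, 32.0 and 25.6 CPM, and with LPS they were at 2.31, 4.91, 4.69, 3.43 and 4.69 CPM. In NDI1 mice the values were 30.9, 31.1, 31.1, 32.4 and 26.8 CPM without treatment and 4.94, 4.41, 3.24, 3.61 and 3.16 CPM with LPS. The highest value with LPS lay far below the lowest without it in both genotypes. The level fell by 2.92 ± 0.19 on the log2 scale in WT (adjusted p = 1.26e-15), to 0.132 of the untreated level, and by 2.97 ± 0.19 in NDI1 (adjusted p = 8.77e-16). With LPS the gene was read with 17 to 46 counts per library in WT and 24 to 45 in NDI1, so single values there carry a large counting error. The gene Gm43292 overlaps 8.05% of the Eif2ak3 exon bases on the opposite strand, and since the strand setting of the counting is not given in the sources used here, reads in that stretch are less certain.

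Eif2ak4 (ENSMUSG00000005102, chr2:118388618-118475234 in mm10, plus strand), the kinase gene that answers amino acid shortage, and Eif2ak1 (ENSMUSG00000029613, chr5:143817788-143904256 in mm10, plus strand), the kinase gene downstream of the mitochondrial relay, also fell with LPS. Eif2ak4 stood at 19.3, 15.3, 12.0, 14.6 and 9.90 CPM in untreated WT mice and at 5.04, 5.87, 6.14, 4.12 and 3.03 CPM with LPS. It fell by 1.54 ± 0.21 on the log2 scale in WT (adjusted p = 9.73e-08) and by 1.41 ± 0.21 in NDI1 (adjusted p = 4.41e-07), with no overlap between groups. In these scaled estimates Eif2ak1 was the member that LPS moved least, a rank that depends on the scaling. Its level lay between 69.0 and 75.4 CPM in untreated WT mice and between 40.3 and 57.0 CPM with LPS, again without overlap. The log2 fold change was −0.53 ± 0.093 in WT (adjusted p = 5.93e-06) and −0.49 ± 0.093 in NDI1 (adjusted p = 2.14e-05). Exons of Aimp2 and Ankrd61 on the opposite strand overlap 8.59% and 3.03% of the Eif2ak1 exon bases, and those of Gm26637 and n-R5s29 overlap 3.4% and 0.919% of the Eif2ak2 exon bases.

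The relay genes Oma1 (ENSMUSG00000035069, chr4:103313812-103371868 in mm10, plus strand) and Dele1 (ENSMUSG00000024442, chr18:38250249-38262629 in mm10, plus strand) followed the same direction. Oma1 lay between 13.2 and 17.1 CPM in untreated WT mice and between 5.35 and 10.7 CPM with LPS, and fell by 0.87 ± 0.14 on the log2 scale (adjusted p = 2.17e-06). In NDI1 it fell by 0.70 ± 0.14 (adjusted p = 5.33e-05). Dele1 lay between 13.8 and 18.4 CPM without and between 6.26 and 10.5 CPM with LPS in WT, and fell to 0.488 of the untreated level (log2 fold change −1.04 ± 0.13, adjusted p = 2.06e-08). In NDI1 it fell by 0.93 ± 0.13 (adjusted p = 1.58e-07). Neither gene overlapped between untreated and LPS groups, and all 5 mice of each genotype had less of both with LPS. On the opposite strand, 1700086O06Rik overlaps 2.17% of the Dele1 exon bases.

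On the other side of the cycle, the phosphatase subunit gene Ppp1r15b (ENSMUSG00000046062, chr1:133131143-133139783 in mm10, plus strand) rose. Untreated WT mice stood at 86.3, 93.0, 91.2, 99.4 and 80.1 CPM, and with LPS they stood at 736, 628, 543, 869.5 and 727 CPM. In NDI1 the values were 89.5, 88.7, 87.9, 102 and 90.7 CPM and 588, 564, 683, 863 and 671 CPM. The lowest LPS value in either genotype was over any untreated one. The log2 fold change was 2.96 ± 0.14 in WT (adjusted p = 1.24e-19) and 2.88 ± 0.14 in NDI1 (adjusted p = 2.72e-19). Gm26616, annotated on the opposite strand, overlaps 11.4% of the Ppp1r15b exon bases. Eif2s1 (ENSMUSG00000021116, chr12:78861819-78887010 in mm10, plus strand), the substrate gene, rose less, from between 72.0 and 92.0 CPM to between 119 and 170.0 CPM in WT (log2 fold change 0.85 ± 0.15, adjusted p = 4.31e-06). In NDI1 it rose by 0.71 ± 0.15 (adjusted p = 6.49e-05), where NDI1 mouse 521 without treatment (105 CPM) stood above the lowest LPS value (99.4 CPM), and the 2 groups therefore overlapped. The rise of Eif2s1 rests on the TMM scaling. Its unscaled counts per library were 919 to 1450 untreated and 1068 to 1123 with LPS in WT. In NDI1 they were 818 to 1469 and 880 to 1407.

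The LPS effect was set against genotype next. The difference of the LPS effects (NDI1 minus WT) called 0 of the 8 members and 0% of all genes in edgeR, 0 members had an unadjusted p under 0.05, and DESeq2 called 0 members as well. The estimates lay between −0.14 (Eif2s1) and 0.17 (Oma1) on the log2 scale. The 95% intervals bound what could have been missed: they ran from −0.22 to 0.31 for Eif2ak1, the narrowest, and from −0.48 to 0.73 for Eif2ak4, the widest. Likewise, NDI1 against WT called 0 members and 0% of genes without treatment, and 0 members and 0% of genes with LPS. In both of these 0 members had an unadjusted p under 0.05 and DESeq2 called 0 members.

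Since the kinases share one substrate, their transcripts were also compared with each other, as CPM per kb of exon (the union of exons in GENCODE M21 within the span of the deposited gene). This compares transcript levels and not kinase protein or activity. Without treatment in WT, Eif2ak2 stood at 13.5 ± 1.93 CPM per kb (SD, n = 5), Eif2ak1 at 12.8 ± 0.502, Eif2ak3 at 5.09 ± 0.499 and Eif2ak4 at 1.91 ± 0.479. These are mean shares of 40.4%, 38.6%, 15.3% and 5.70% of the summed kinase transcripts. The order of the first pair depended on the length used, since the longest coding transcript of each gene gave 37.8% for Eif2ak2 and 39.8% for Eif2ak1. With LPS, Eif2ak2 made up 90.6% ± 2.11 (SD, n = 5) in WT and 90.4% ± 1.44 in NDI1, and the sum of the 4 kinases went from 33.3 ± 2.36 to 110 ± 14.02 CPM per kb in WT. The shares of Eif2ak3 and Eif2ak4 were then 0.622% and 0.603% in WT. With piericidin A alone in WT the sum was 22.4 ± 3.94 CPM per kb, and Eif2ak1 held the largest share (48.0% ± 4.72) with Eif2ak2 at 30.8% ± 3.78. In NDI1 under piericidin A the corresponding shares were 40.6% ± 2.87 and 37.8% ± 4.20, and the sum was 30.8 ± 3.29 CPM per kb. Shares of a sum move together by construction, and they are given without a test.

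**Figure D2:**
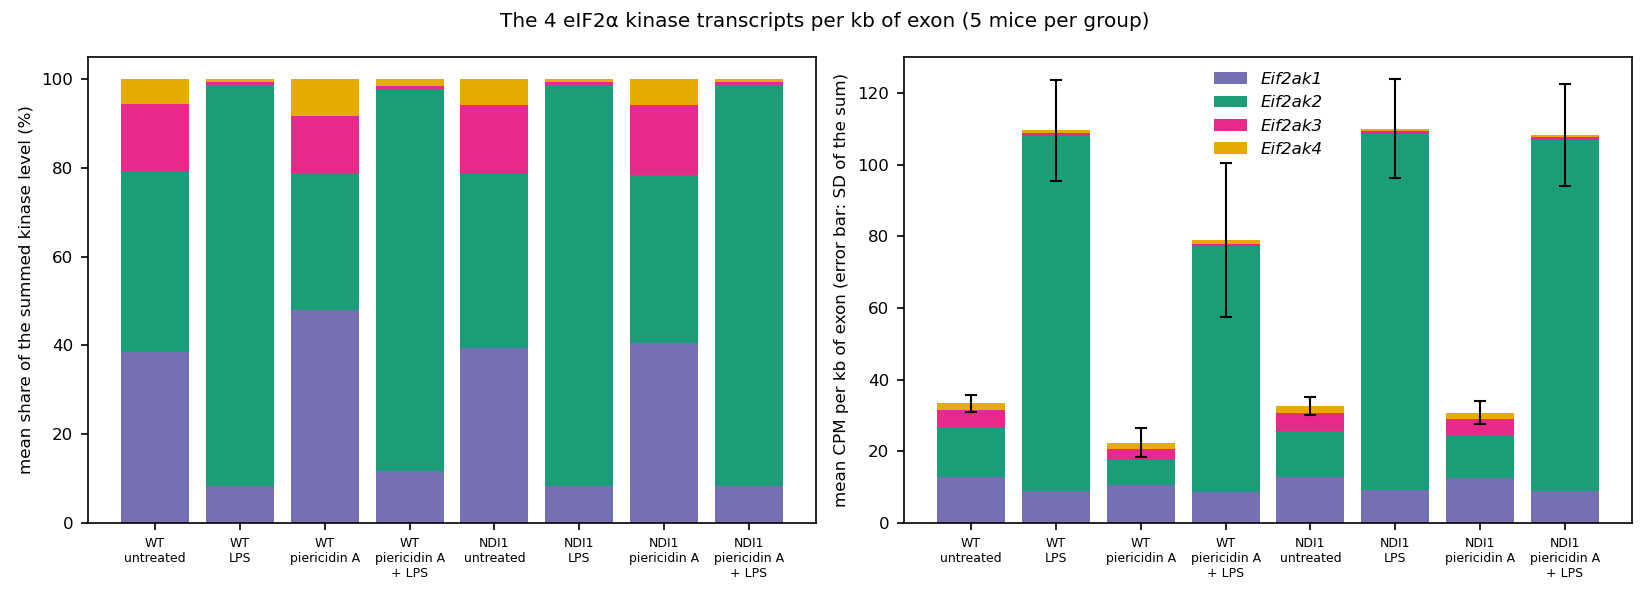
The 4 kinase transcripts per kb of exon in the 8 groups, as mean shares of their sum (left, %) and as stacked mean levels in CPM per kb (right), with the SD of the sum over 5 mice as error bars. Eif2ak2 fills about 90.4% to 90.6% of the bar in the groups with LPS apart from WT with both agents, where it fills 86.0%.

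Among the other members, levels per kb in untreated WT were 16.1 ± 1.30 for Ppp1r15b, 15.9 ± 1.57 for Eif2s1, 6.88 ± 0.676 for Oma1 and 2.42 ± 0.298 CPM per kb for Dele1. The Dele1 value depends most on the length used, because its exon union (6673 bases) is longer than its longest coding transcript (2394 bases).

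Piericidin A alone lowered 3 kinase transcripts in WT BMDMs and called no member in NDI1. In WT it called 3 of 8 members, where it called 14.8% of all genes, and all 3 were lower (7.05% of all genes were lower and 7.79% higher). The largest drop was that of Eif2ak2. WT mice 449, 452, 453, 496 and 520 stood at 35.4, 51.1, 39.4, 29.1 and 24.0 CPM with piericidin A, below each untreated value listed above. The level fell by 0.95 ± 0.18 on the log2 scale, to 0.518 of the untreated level (adjusted p = 0.000425). In NDI1 the values with piericidin A were 47.9, 61.3, 49.4, 76.5 and 63.7 CPM, which overlapped the untreated ones (log2 fold change −0.13 ± 0.18, adjusted p = 1).

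Eif2ak3 fell in the same way. With piericidin A the WT mice were at 19.8, 22.4, 20.6, 14.4 and 11.0 CPM, and mice 496 and 520 were lowest. All 5 values lay below the lowest untreated one (25.6 CPM), and the log2 fold change was −0.79 ± 0.17 (adjusted p = 0.00132). NDI1 mice were at 23.8, 33.6, 30.4, 33.4 and 25.1 CPM, which overlapped their untreated cells (log2 fold change −0.057 ± 0.17, adjusted p = 1).

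Eif2ak1, which takes up the mitochondrial signal, fell slightly in WT. It lay between 52.1 and 67.2 CPM with piericidin A, below every untreated value, and the log2 fold change was −0.27 ± 0.092 (adjusted p = 0.0433). This call was lost when WT mouse 449, 453, 496 or 520 or NDI1 mouse 460, 461 or 503 was left out, with adjusted p-values between 0.0502 and 0.172 and log2 fold changes between −0.29 and −0.21. It was also lost with upper quartile scaling (adjusted p = 0.0535), with no filter on low counts (0.122) and with only the compared libraries (0.0737). Without mice 496 and 503 together, the log2 fold change was −0.21 (adjusted p = 0.185), while Eif2ak2 and Eif2ak3 were still called, 2 members among 909 genes in place of 1759. In NDI1 the log2 fold change was −0.04 ± 0.092 (adjusted p = 1).

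The other members did not pass the test with piericidin A alone in WT. Eif2ak4 had a log2 fold change of −0.047 ± 0.20, Oma1 of 0.047 ± 0.14 and Dele1 of 0.10 ± 0.13. The transcripts of the protease and its relay substrate thus had 95% intervals of −0.23 to 0.32 and −0.16 to 0.36. Ppp1r15b lay at 111, 111, 114, 112 and 125 CPM in the WT mice, above all untreated WT values, and its log2 fold change was 0.35 ± 0.13 (adjusted p = 0.0643). It passed without NDI1 mouse 503 (0.35, adjusted p = 0.0452), with upper quartile scaling (0.34, adjusted p = 0.0304) and with only the compared libraries (0.36, adjusted p = 0.0218). With the mouse as a block, which compares the libraries of one mouse with each other, Ppp1r15b rose (adjusted p = 0.00575) and so did Eif2s1 (log2 fold change 0.20, adjusted p = 0.0342, higher in 5 of 5 mice). The block called 5 members, where it called 34.2% of all genes.

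In NDI1, piericidin A alone called 0 members and 0% of genes in edgeR, with 0 members (and 58 of 11853 genes) at an unadjusted p under 0.05 and 0 members called by DESeq2. The largest of the 8 estimates was that of Eif2ak2 given above. The difference of the piericidin A effects (NDI1 minus WT) was 0.81 ± 0.26 for Eif2ak2 (adjusted p = 0.118) and 0.73 ± 0.24 for Eif2ak3 (adjusted p = 0.131). Neither passed, 0 members were called and 1.27% of all genes were, while 2 members had an unadjusted p under 0.05 and DESeq2 called 1 (Eif2ak3, adjusted p = 0.0486). With the mouse as a block both passed (adjusted p = 0.00670 and 0.00649), where 8.96% of all genes did. Without the block, Eif2ak2 also passed when WT mouse 452 was left out (0.95, adjusted p = 0.0410). Within single WT mice the log2 difference of Eif2ak2 was −0.94, −0.55, −0.62, −1.50 and −1.30, and within NDI1 mice it was −0.35, −0.21, −0.23, −0.067 and 0.14. Every WT mouse was lower than every NDI1 mouse in this measure. For Eif2ak3 the WT differences lay between −1.20 and −0.48 and those of NDI1 between −0.37 and 0.11, again without overlap. The share of all genes with such a separation was not computed.

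The genotypes were also compared directly under piericidin A. NDI1 against WT called 2 members, where it called 7.8% of all genes. Eif2ak2 was higher in NDI1 by 0.74 ± 0.18 on the log2 scale (adjusted p = 0.00794) with overlap of 1 WT mouse, number 452 at 51.1 CPM, and Eif2ak3 by 0.72 ± 0.17 (adjusted p = 0.00468) with no overlap. Leaving out 1 mouse kept both calls, with adjusted p-values of Eif2ak2 up to 0.04997 (without WT mouse 520), and with only the compared libraries Eif2ak2 did not pass (0.73, adjusted p = 0.0516). Without mice 496 and 503 together, the mice with the highest neutrophil marker sums, neither passed (0.57, adjusted p = 0.121 for Eif2ak2 and 0.61, adjusted p = 0.0675 for Eif2ak3). Ppp1r15b did not overlap between the genotypes either, and its log2 fold change was −0.33 ± 0.13 (adjusted p = 0.111). Without NDI1 mouse 521 Eif2s1 was called as well (−0.39, adjusted p = 0.0454).

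**Figure D3:**
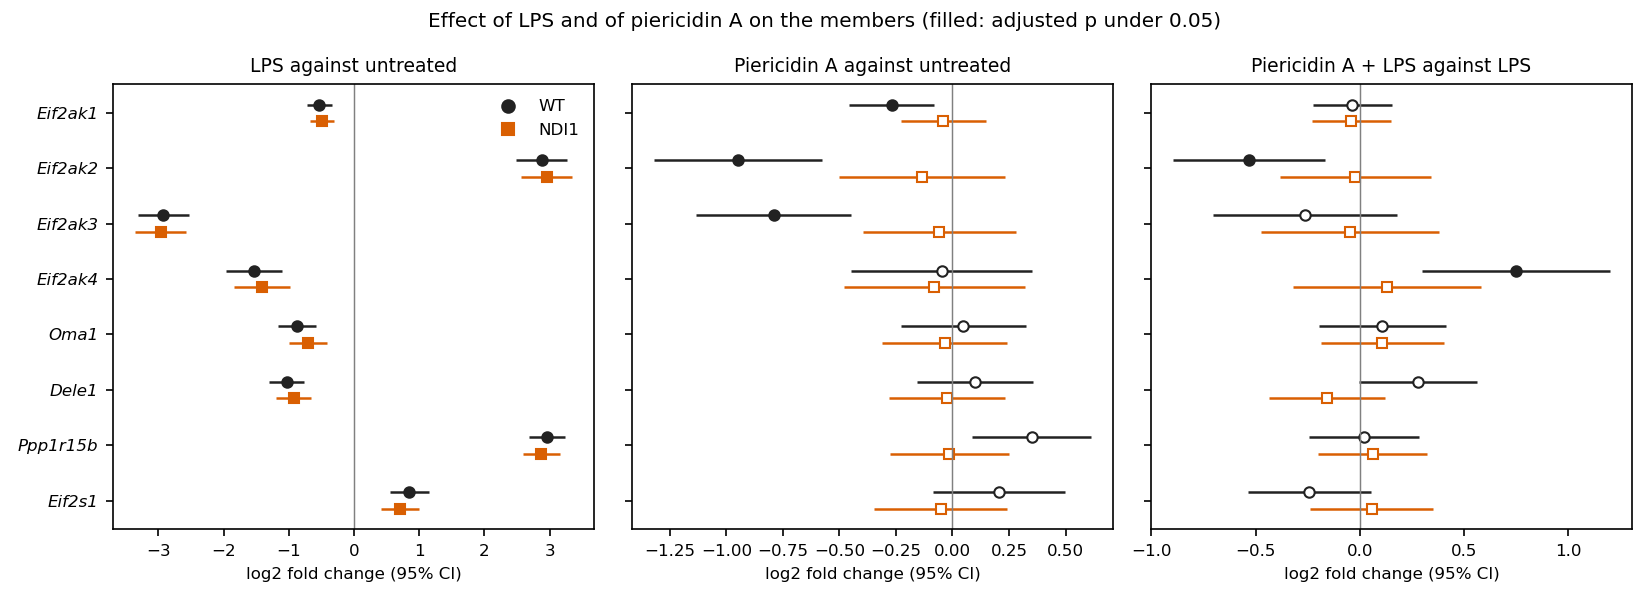
Log2 fold changes of the 8 members with 95% confidence intervals for LPS (left), piericidin A alone (middle) and piericidin A added to LPS (right) in WT (black circles) and NDI1 (orange squares), with filled symbols at an adjusted p under 0.05. LPS gave filled symbols for all members in both genotypes, and piericidin A gave filled symbols in WT alone. The difference between genotypes is tested in the text, not in the plot.

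Piericidin A given before LPS had opposite signs on 2 kinases in WT BMDMs: Eif2ak2 fell and Eif2ak4 rose. It called these 2 of 8 members, where it called 16.7% of all genes (7.81% higher and 8.92% lower). With both agents Eif2ak2 stood at 439.7, 487, 213, 326 and 292 CPM in the WT mice, and each mouse was lower than with LPS alone although the groups overlapped. The log2 fold change was −0.53 ± 0.18 (adjusted p = 0.0373). Eif2ak4 stood at 7.64, 6.53, 11.1, 8.47 and 7.58 CPM, above the highest value with LPS alone (6.14 CPM) in every mouse, and rose by 0.75 ± 0.22 on the log2 scale, or 1.68-fold (adjusted p = 0.0176). This left it short of its untreated level, and it was read with 51 to 69 counts per library.

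Both calls were sensitive to single mice and to the fit. The Eif2ak2 call was lost without WT mouse 449 (log2 fold change −0.59, adjusted p = 0.0573), 453 (−0.48, 0.0777), 496 (−0.50, 0.123) or 520 (−0.48, 0.128). It was also lost with no filter on low counts (−0.55, 0.0508) and with only the compared libraries (−0.48, 0.114). The Eif2ak4 call was lost without WT mouse 496 (log2 fold change 0.69, adjusted p = 0.0918) or 520 (0.66, adjusted p = 0.0857) and with only the compared libraries (0.82, adjusted p = 0.0521). Without mice 496 and 503 together, no member was called (log2 fold changes −0.50 for Eif2ak2 and 0.68 for Eif2ak4, adjusted p = 0.117 and 0.102), and 956 genes were called in place of 1983. The fit with the mouse as a block called 4 members, where it called 34.5% of all genes. Beside Eif2ak2 (adjusted p = 0.00173) and Eif2ak4 (adjusted p = 0.00247), these were Dele1, which rose by 0.29 (adjusted p = 0.0474), and Eif2s1 (log2 fold change −0.23, adjusted p = 0.0150). Without the block the adjusted p-values of these 2 were 0.165 and 0.257.

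For the relay gene Dele1, WT mice stood at 6.26, 8.76, 10.5, 6.45 and 7.27 CPM with LPS and at 10.9, 8.45, 11.2, 9.49 and 7.98 CPM with both agents. The level was higher with both in 4 of 5 WT mice, with log2 differences between −0.051 and 0.78. NDI1 mice stood at 9.33, 10.1, 9.72, 6.96 and 8.56 CPM and 8.64, 8.78, 9.10, 5.52 and 7.81 CPM, lower with both in 5 of 5, with differences between −0.32 and −0.093. The 2 genotypes did not overlap in this measure, but the share of all genes with such a separation was not computed. The test of the difference, which did not pass, is given with the NDI1 comparison.

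The other 4 members gave small estimates in LPS-treated WT cells. These were −0.035 ± 0.094 for Eif2ak1, −0.26 ± 0.22 for Eif2ak3, 0.11 ± 0.15 for Oma1 and 0.02 ± 0.13 for Ppp1r15b. Eif2ak3 was read with 15 to 35 counts per library there, and its 95% interval of −0.71 to 0.18 was among the widest.

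In LPS-treated NDI1 BMDMs, piericidin A called 0 members and 0% of genes in edgeR, with 0 members and 127 genes at an unadjusted p under 0.05 and 0 members called by DESeq2. Eif2ak2 stood at 487, 395, 564, 578 and 485 CPM (log2 fold change −0.021 ± 0.18) and Eif2ak4 at 6.21, 5.04, 7.55, 5.38 and 4.97 CPM (log2 fold change 0.13 ± 0.22). The values overlapped those with LPS alone for both. The difference of the effects between genotypes, however, passed the test for 0 members (0.979% of all genes passed), with 1 member (Dele1) at an unadjusted p under 0.05 and 0 called by DESeq2. It was 0.51 ± 0.25 for Eif2ak2 (adjusted p = 0.362), −0.62 ± 0.31 for Eif2ak4 (adjusted p = 0.371) and −0.44 ± 0.20 for Dele1 (adjusted p = 0.307). With the block 0 members passed either, where 9.51% of genes did. A difference between genotypes in these effects was therefore not shown for any member.

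NDI1 against WT with both agents called 0 members, where it called 12% of all genes. Here 2 members (Eif2ak2 and Eif2ak4) had an unadjusted p under 0.05, and DESeq2 called 1 (Eif2ak2, 0.52, adjusted p = 0.0356). In edgeR the log2 fold change of Eif2ak2 was 0.51 ± 0.18 (adjusted p = 0.0552) and that of Eif2ak4 was −0.49 ± 0.22 (adjusted p = 0.135). Eif2ak2 passed when WT mouse 449 (adjusted p = 0.0428), WT mouse 452 (0.00972) or NDI1 mouse 460 (0.0460) was left out.

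**Figure D4:**
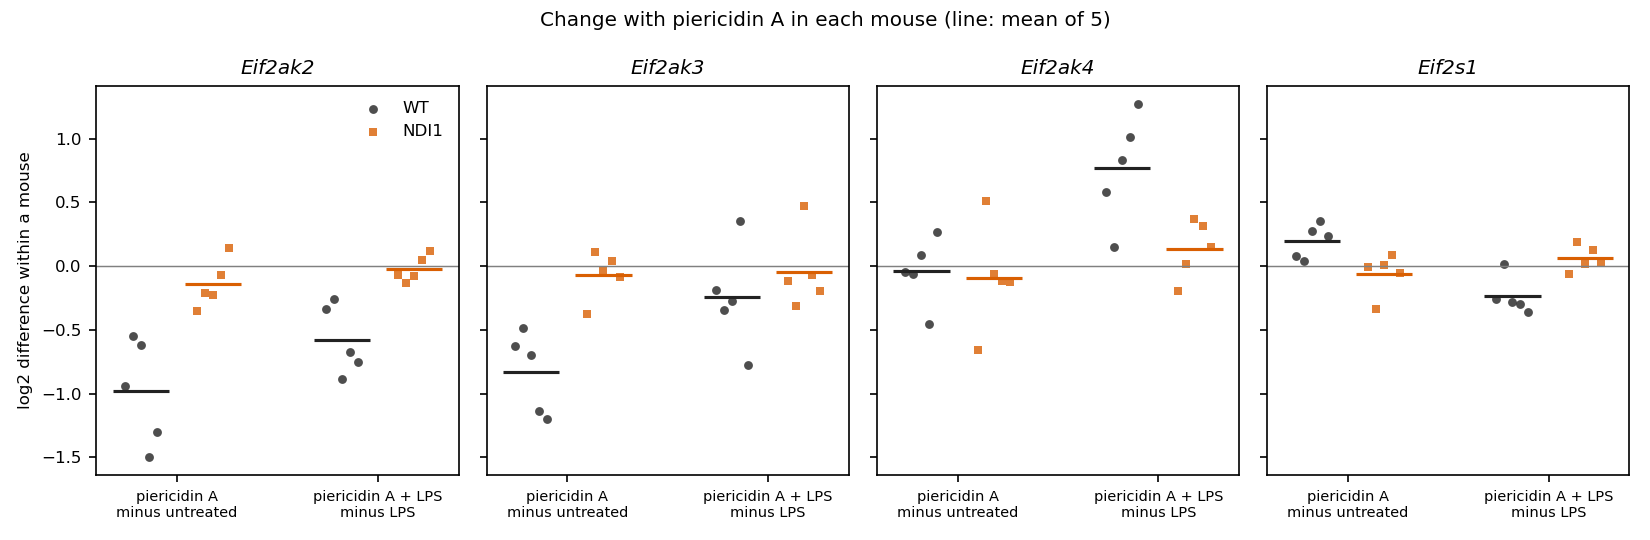
Log2 difference in CPM (prior count 2) within each mouse between piericidin A and no treatment and between both agents and LPS alone, for 4 members, with WT as black circles, NDI1 as orange squares and the mean of 5 as a line. Eif2ak2 was lower with piericidin A in 5 of 5 WT mice in both settings, and Eif2ak4 was higher in 5 of 5 WT mice in the LPS setting.

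Whether piericidin A changed the size of the LPS effect in WT was tested as well. It called 0 members (4.75% of genes), 2 members had an unadjusted p under 0.05 and DESeq2 called 0. The drop of Eif2ak4 with LPS was smaller by 0.80 ± 0.30 on the log2 scale when piericidin A was present (adjusted p = 0.119), and the change for Eif2s1 was −0.45 ± 0.20 (adjusted p = 0.227). With the mouse as a block these 2 passed (adjusted p = 0.0181 and 0.00411), where 17.4% of genes did. These comparisons share control groups and are not independent of each other.

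The order of the 8 group means differed by member. For Eif2ak2 it ran from NDI1 with LPS (509 CPM), WT with LPS (508 CPM) and NDI1 with both agents (502 CPM) through WT with both (351 CPM) and WT untreated (69.2 CPM), NDI1 untreated (65.6 CPM) and NDI1 with piericidin A (59.8 CPM) to WT with piericidin A (35.8 CPM). Within the first 3 groups, and within the 3 from WT untreated to NDI1 with piericidin A, neighbours differed by less than the larger of their SDs. Eif2ak3 ran from untreated WT (30.7 CPM) to WT with both agents (3.36 CPM), and only the gaps on either side of WT with piericidin A (17.7 CPM) exceeded the larger SD. Oma1 split into the 4 groups without LPS (14.7 to 15.2 CPM) and the 4 with it (8.06 to 9.91 CPM), with no gap within either beyond the SD. The groups of Ppp1r15b split likewise into those with LPS (674 to 710 CPM) and those without, where WT with piericidin A (115 ± 6.18 CPM, SD, n = 5) stood above the other 3 (90.0 to 91.8 CPM).

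For each member, the genes with the most similar profile over the 8 group means of log2 CPM, each profile centred on its mean, were found by the root-mean-square difference. For Eif2ak2 they were Stat2 (0.12 on the log2 scale), Mitd1 (0.12) and Parp12 (0.12), for Eif2ak3 Lpar6 (0.10), Foxo3 (0.12) and Neurl1b (0.14), and for Eif2ak4 Wdr19, Nek4 and Bcs1l (0.038 to 0.058). For Ppp1r15b they were Srgn (0.048), Tlk2 and Sap30, and for Eif2s1 Cnih4 (0.018), Lamp2 and Arl6ip1. Oma1 lay closest to 9430038I01Rik, Gatb and Eif2b4 (0.050 to 0.067), Dele1 to Rxrb, Sirt5 and Mis18a (0.042 to 0.057), and Eif2ak1 to Dhx29, Ubr2 and Zdhhc24 (0.028 to 0.034). Likeness over 8 means is a description.

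The other genes of the pathway were read from lists drawn up for this work. Of the 7 eIF2 and eIF2B subunit genes (eIF2B recharges eIF2 with GTP), LPS called 0 higher and 2 lower in WT, where it called 31.5% of all genes higher and 31% lower. These were Eif2b4 (−0.94 ± 0.16, adjusted p = 3.29e-06) and Eif2b1 (−0.35 ± 0.11, adjusted p = 0.00565), and these were also lower in NDI1 (−0.63 ± 0.16 and −0.30 ± 0.11). With the block 2 were higher and 2 lower in each genotype, where it called 72% of all genes in WT and 72.4% in NDI1. Piericidin A alone, which called 14.8% of all genes in WT, called 1 of the 7 higher, Eif2s2 (0.87 ± 0.20, adjusted p = 0.00241), which encodes the β subunit of eIF2. Under LPS, where it called 16.7% of all genes, it called 1 lower, Eif2b1 (−0.40 ± 0.11, adjusted p = 0.0119). The medians of this list in these 3 WT comparisons were −0.077, 0.060 and 0.17, beside −0.0076, −0.00045 and −0.016 over all genes.

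The 4 further phosphatase genes were led by Ppp1r15a, which encodes the stress-induced counterpart of CReP. LPS, which called 62.5% of all genes in WT, called 2 higher, Ppp1r15a (1.06 ± 0.21, adjusted p = 3.31e-05) and Ppp1cb (0.53 ± 0.17), and 1 lower, Ppp1cc (−0.50 ± 0.10), the last 2 encoding catalytic subunits. In NDI1 these genes moved likewise (1.04 ± 0.21, 0.46 ± 0.17 and −0.57 ± 0.10), and without mice 496 and 503 the number higher in NDI1 was 1. Ppp1r15a thus rose less with LPS than Ppp1r15b in the log2 estimate, a difference that was not tested. Piericidin A raised Ppp1r15a and no other gene of this list in WT, by 1.38 ± 0.21 alone (adjusted p = 1.40e-05) and by 0.76 ± 0.21 under LPS (adjusted p = 0.00952). These are 1 of 4 genes in comparisons that called 14.8% and 16.7% of all genes. With the block, 2 of the 4 were called higher with piericidin A alone, beside 34.2% of all genes called. The genotype difference of the effect of piericidin A alone passed for Ppp1r15a (−1.18 ± 0.29, adjusted p = 0.0288). Without mice 496 and 503 it passed for 0 of the 4 genes, and for 73 of all genes in place of 150.

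Of the 9 partners and regulators of the kinases, LPS called 5 higher and 2 lower in WT (4 and 2 without mice 496 and 503), where it called 62.5% of all genes. Adar, whose product edits the double-stranded RNA that PKR senses, rose by 2.13 ± 0.14 (adjusted p = 7.75e-16), and Hspa5, the chaperone that holds PERK inactive, rose by 1.57 ± 0.18 (adjusted p = 1.81e-09). Impact, whose product inhibits GCN2, fell by 2.70 ± 0.22 (adjusted p = 4.86e-13). In NDI1, 4 were higher and 3 lower, where 62.7% of all genes were called. Piericidin A alone called 1 higher and 2 lower in WT, where it called 14.8% of all genes. Impact rose by 1.45 ± 0.20 (adjusted p = 2.88e-06), while Adar (−0.50 ± 0.13, adjusted p = 0.00967) and Gcn1 (−0.41 ± 0.14, adjusted p = 0.0462), the GCN2 activator, fell. The block called 5 higher and 3 lower in this comparison, where it called 34.2% of all genes. Without mice 496 and 503, 1 was called higher and 0 lower, and 909 of all genes were called in place of 1759.

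Under LPS, where it called 7.81% of all genes higher and 8.92% lower, piericidin A called 2 of the 9 higher in WT, Impact by 1.54 ± 0.23 (adjusted p = 1.28e-05) and Prkra, which encodes the PKR activator PACT, by 0.70 ± 0.20 (adjusted p = 0.0115). It called 2 lower, Tarbp2 (−0.49 ± 0.15, adjusted p = 0.0214), which encodes an RNA-binding PKR inhibitor, and Dnajc3, which encodes a co-chaperone known to inhibit PKR and PERK (−0.37 ± 0.11, adjusted p = 0.0161). The genotype difference passed for 1 of the 9 (1.27% of all genes without LPS and 0.979% with it). The effect on Impact differed both without LPS (−1.47 ± 0.28, adjusted p = 0.00212) and with it (−1.54 ± 0.33, adjusted p = 0.0112). With the block the genotype difference was positive for 1 and negative for 2 without LPS, and positive for 2 and negative for 1 under it. It passed for 8.96% and 9.51% of all genes there. Without mice 496 and 503, piericidin A under LPS called 2 of the 9 higher and 1 lower in WT, where it called 956 genes. The genotype difference under LPS then passed for 0, and for 18 of all genes.

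Among the 8 inner membrane partners of OMA1, LPS called 2 higher and 1 lower in WT, where it called 62.5% of all genes. Yme1l1, the protease that shares substrates with OMA1, rose by 1.00 ± 0.14 (adjusted p = 7.82e-08) and Pgam5 by 0.34 ± 0.13, while Afg3l2, an inner membrane protease subunit, fell by 0.24 ± 0.087. In NDI1, 3 were higher and 1 lower, where 62.7% of all genes were called. With mice 496 and 503 left out, 2 were higher and 0 lower in each genotype, among 7111 called genes in WT and 7145 in NDI1. Yme1l1 and Oma1 thus moved in opposite directions with LPS. Piericidin A alone called 0 of the 8 in WT in edgeR, where it called 14.8% of all genes. The block called 1, and 34.2% of all genes, and DESeq2 called 0, and 2161 genes in all. Under LPS, where it called 16.7% of all genes, piericidin A called Yme1l1 lower (−0.42 ± 0.14, adjusted p = 0.0297). This call was lost without mice 496 and 503, where 956 genes were called.

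The 14 transcripts that the integrated stress response is known to induce were the downstream readout. Piericidin A alone raised 10 of them in WT and lowered 0, where 7.79% of all genes were called higher and 7.05% lower, with a median log2 fold change of 1.30 beside −0.00045 over all genes. Gdf15, a stress-induced secreted factor, rose by 4.21 ± 0.47 (adjusted p = 6.28e-08) and Slc7a11, the cystine transporter gene, by 2.40 ± 0.50 (adjusted p = 0.000947). In the same comparison the kinase transcripts Eif2ak1, Eif2ak2 and Eif2ak3 were lower, as given above. Under LPS, where 7.81% of all genes were called higher, piericidin A raised 3 in WT and lowered 0, namely Gdf15 (3.14 ± 0.46), Ddit4 (2.43 ± 0.46) and Sesn2 (0.71 ± 0.22, adjusted p = 0.0207), which encode inhibitors of mTORC1 signalling in the last 2 cases. The block called 7 there, and 34.5% of all genes. In NDI1 it called 0 of 14 in both settings in edgeR, with the block and in DESeq2.

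The difference of the piericidin A effects between genotypes passed for 2 of the 14 without LPS, Gdf15 (−3.70 ± 0.61, adjusted p = 0.000374) and Atf3 (−1.44 ± 0.37, adjusted p = 0.0419). Under LPS it passed for 2, Ddit4 (−2.92 ± 0.68, adjusted p = 0.0244) and Gdf15 (−2.58 ± 0.62, adjusted p = 0.0309), and all of these were smaller in NDI1. Of all genes 1.27% and 0.979% passed. With the block 10 and 4 of the 14 passed, and 8.96% and 9.51% of all genes. Without mice 496 and 503, 10 rose with piericidin A alone in WT (909 genes called in all, in place of 1759) and 2 rose under LPS (956 in place of 1983). The genotype differences then passed for 1 and 0, and for 73 of all genes in place of 150 and 18 in place of 116. LPS alone called 4 of the 14 higher in WT (Nupr1, Slc7a11, Psat1 and Atf3) and 4 lower (Sesn2, Trib3, Ddit3 and Atf5), near the shares of all genes (31.5% and 31%). In NDI1, 4 were higher and 3 lower (4 and 4 without mice 496 and 503). Its extremes in WT were Nupr1 (3.39 ± 0.35, adjusted p = 9.59e-11) and Sesn2 (−2.45 ± 0.21, adjusted p = 8.25e-13).

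**Figure D5:**
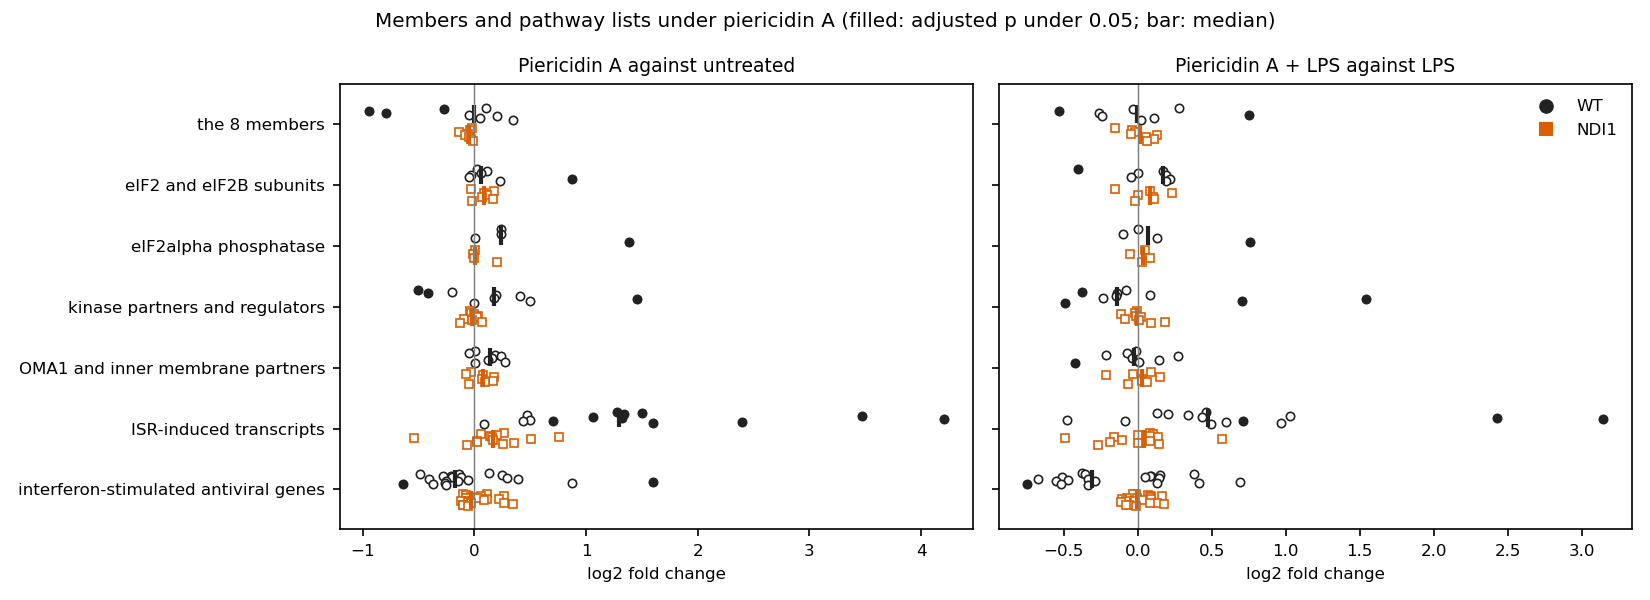
Log2 fold changes of the 8 members and of the genes of 6 pathway lists with piericidin A alone (left) and with piericidin A added to LPS (right), in WT (black circles) and NDI1 (orange squares), with filled symbols at an adjusted p under 0.05 and a bar at each median. In WT without LPS, 10 of the 14 stress response transcripts (labelled ISR-induced transcripts) are filled and lie to the right of 0, while the 3 filled members lie to its left.

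Eif2ak2 was set beside the 20 interferon-stimulated antiviral genes, since interferon is known to induce it too. LPS called 19 of the 20 higher and 1 lower in WT (median 3.46) and likewise 19 and 1 in NDI1 (median 3.75), where 31.5% of all genes were called higher in each genotype. Rsad2 (7.16 ± 0.42), Mx1 (6.62 ± 0.52) and Mx2 (6.48 ± 0.32) rose most in WT, all more than Eif2ak2. Piericidin A alone called 1 higher in WT, Oasl1 (1.60 ± 0.38, adjusted p = 0.00376), and 1 lower, Stat2 (−0.64 ± 0.19, adjusted p = 0.0198), and the median was −0.17. These counts stand beside 7.79% and 7.05% of all genes. The block called 2 higher and 4 lower (34.2% of all genes) and DESeq2 2 and 2 (2161 genes in all). With mice 496 and 503 left out, 1 was higher and 0 lower (909 genes in all). Under LPS edgeR called 0 higher and 1 lower in WT (DESeq2 0 and 2), beside 7.81% and 8.92% of all genes, and the median was −0.31. The block called 2 higher and 9 lower there, and 34.5% of all genes. The Eif2ak2 estimates in these 2 comparisons, given above, were −0.95 and −0.53.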

How the data were processed

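RNA was sequenced from BMDMs of 10 mice in 4 treatments (40 libraries). Per the labels and the study's methods, the authors made polyA-selected libraries (NEBNext Ultra), demultiplexed with bcl2fastq, trimmed with Trimmomatic, aligned to mm10 with STAR and counted reads per gene with HTSeq. The deposited values are raw counts, and the annotation release and strand setting are not given in the sources used here. Reads were counted without molecular identifiers. Library totals ran from 6950748 to 13552070 (median 10361773.5). The table also holds 1 column of undetermined reads, which was not used. Symbols came from GENCODE M21 (42462 of 43430 IDs matched).

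Counts were filtered by edgeR's filterByExpr, scaled by TMM and fitted by group with edgeR 4.0.16 (R 4.3.3), using quasi-likelihood tests and Benjamini-Hochberg adjustment over 11853 genes. An adjusted p under 0.05 was called. Errors beside log2 fold changes are SE and intervals are 95% intervals of single comparisons. Levels are TMM-scaled CPM, and log2 levels used a prior count of 2. The 8 groups shared 1 estimate of spread. The number in a sample's title was read as the mouse. Libraries of the same number deviated together from their group means (mean r 0.453 over 60 pairs, of which 59 exceeded 0.1, against −0.107 over 240 pairs of different numbers), and a fit with the mouse as a block was an alternative. Others were DESeq2 1.42.0, upper quartile scaling, other filters, only the compared libraries, and leaving out each mouse. Leaving out mice 496 and 503 together was chosen after seeing the data. Replicates differed beyond sampling noise in all 80 pairs (smallest chi-square per degree of freedom 9.35). The scripts were tested on simulated data.

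The members and lists were chosen with earlier results of these data known. Named genes are the 8 members, in each list up to 3 called genes with the largest change for LPS and for piericidin A under LPS in WT, and for each member its 3 nearest profiles. Other list genes named (Eif2s2, Gcn1, Dnajc3, Oasl1, Atf3, Psat1, Trib3, Ddit3 and Atf5), and the overlapping genes, were chosen after their values or positions were seen. Some results on genes of the lists are not reported here.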

Additional observations from a re-analysis of the deposited data

Results flagged for a closer look

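In 5 of the 64 sets of 5 values (8 members in 8 groups), 1 mouse stood far from the other 4 relative to the range of the group. Chance gives about 3.2 such sets. Dele1 in NDI1 with piericidin A was 19.9 CPM in mouse 460 and between 15.3 and 16.5 CPM in the others. Untreated NDI1 mouse 521 was apart for Eif2ak3, at 26.8 CPM against 30.9 to 32.4 CPM, and for Eif2s1, at 105 CPM against 68.2 to 74.5 CPM. Untreated NDI1 mouse 503 had 102 CPM of Ppp1r15b against 87.9 to 90.7 CPM. WT mouse 520 with piericidin A had 125 CPM of Ppp1r15b against 111 to 114 CPM. These 5 values came from 4 mice.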

How the results depend on the processing

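Of 1984 member values recomputed under 18 alternative settings (112 pairs of a member and a comparison, not all of which the block could fit), 1940 stayed on the same side of the threshold, 25 lost a call and 19 gained one. Of those that stayed, 101 changed sign, all of them uncalled, and 0 called values changed sign. With the mouse as a block, 8 gained a call and 0 lost one. The number of members called with piericidin A alone in WT was 5 with the block and 2 to 3 without 1 mouse. It was also 3 with upper quartile scaling and with only the compared libraries, but there Ppp1r15b (adjusted p = 0.0304 and 0.0218) was called in place of Eif2ak1 (0.0535 and 0.0737), and with no filter it was 2. With piericidin A under LPS in WT it was 4 with the block, 1 with no filter, 0 with only the compared libraries, 0 to 2 without 1 mouse and 0 without mice 496 and 503. The difference of the piericidin A effects between genotypes called 2 with the block, 1 in DESeq2 and 0 to 1 without 1 mouse, and the change of the LPS effect called 2 with the block. NDI1 against WT called 1 under piericidin A with only the compared libraries, 0 without mice 496 and 503 and 2 to 3 without 1 mouse, and under both agents it called 1 in DESeq2, 1 with upper quartile scaling and 0 to 1 without 1 mouse. The cause of these changes was not tested, except that leaving out mice leaves fewer samples. The block changed no other member's call.

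Over all genes, piericidin A alone in WT called 1759, against 4049 with the block and 788 to 1800 without 1 mouse. Under LPS it called 1983, against 891 with only the compared libraries, 4090 with the block and 841 to 2023 without 1 mouse. The genotype difference called 150, against 294 in DESeq2, 1062 with the block and 63 to 200 without 1 mouse, and under LPS 116, against 231, 72 with no filter, 49 with only the compared libraries, 1127 with the block, 27 to 255 without 1 mouse and 18 without mice 496 and 503. The change of the LPS effect called 563, against 354 with only the compared libraries, 2066 with the block and 163 to 596 without 1 mouse. NDI1 against WT called 924 under piericidin A, against 477 and 458 with only the compared libraries and without mice 496 and 503 and 587 to 1115 without 1 mouse, and 1421 under both agents, against 398, 574 and 746 to 1792. Depth limited Eif2ak3 and Eif2ak4 most, with as few as 15 and 20 reads in a library.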

Other observations

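LPS was also compared within each mouse in the presence of piericidin A, a contrast given here as values with no test. Eif2ak2 was higher with both agents than with piericidin A alone in all 10 mice, with log2 differences between 2.43 and 3.63 in WT and between 2.68 and 3.51 in NDI1. Eif2ak3 was lower in all 10, with differences between −3.19 and −1.67 in WT and between −3.21 and −2.35 in NDI1. Eif2s1, the substrate gene, was higher in scaled CPM in all 10, with differences between 0.12 and 0.70 in WT and between 0.64 and 1.07 in NDI1.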
